A study of Mus musculus with 8 samples.

Results

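The circadian clock genes examined here are the 10 genes Arntl, Clock, Per1, Per2, Per3, Cry1, Ciart, Nr1d1, Nr1d2 and Dbp, found by symbol among 24539 RNA-seq entries and 25033 Ribo-seq entries from mouse liver, of which 24079 symbols are in both assays. All 10 were present in both assays. Liver mRNA was measured by RNA-seq of polyadenylated RNA. Ribo-seq was used to capture RPFs, the fragments of mRNA that translating ribosomes shield from nuclease. The Ribo-seq libraries also held reads of noncoding RNAs, given below. Both groups were male C57BL/6 mice on a diet with 45% of its energy from fat from week 8, with livers labelled post natal week 25. The HF group received the diet alone and the HB group also received 2% (w/v) betaine, a methyl donor, dissolved in water. Each group had 6 mice and 2 libraries per assay (HF1, HF2, HB1 and HB2). By the study's methods, 2 mice per group with a body weight near the group mean were sequenced, and the libraries are called biological repetitions. The labels instead describe RNA pooled from several preparations, so a replicate here is a library. The p-values measure only the spread between libraries, and these sources differ on whether that is a spread between single mice. The labels give 25 weeks of feeding where the ages and the study's methods give 17. The time of day of collection is not given in the sources used here, so time of day and betaine cannot be told apart wherever the groups differ.

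The mammalian clock is a feedback loop of transcription. CLOCK and BMAL1 (the product of Arntl) bind E-boxes and switch on the Per and Cry genes, Ciart, Nr1d1, Nr1d2 and Dbp. PER and CRY proteins, and CIART (CHRONO), then repress CLOCK and BMAL1. REV-ERB alpha and beta (Nr1d1 and Nr1d2) repress Arntl through ROR elements, and DBP activates genes with D-boxes. In mouse liver most of these mRNAs rise and fall strongly over the day, with Arntl highest when Dbp and Nr1d1 are low, and Clock mRNA varies less. Per1 and Per2 also respond directly to feeding and to glucocorticoids.

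Sequence upstream of the start site was examined because these genes are linked by shared elements. The RefSeq promoter table (GRCm38.p6) held 9 of the 10 genes, all but Per2, in 13 windows. The 250 bases before to 50 bases after each start were searched on both strands for the E-box CACGTG, the E-prime-box CACGTT, the D-box TTATGTAA or TTACGTAA, and the ROR element core TAGGTCA or TGGGTCA. None of these letters overlapped another match. The matches before the start are shown in capitals in a stretch of each gene, with the gene's strand read 5′ to 3′. The stretches lie at chr3:95882252-95882359 (Ciart, minus strand), chr11:69098768-69098803 (Per1, plus strand, in an intron of the GENCODE gene), chr4:151044801-151044885 (Per3, minus strand), chr10:85185094-85185148 (Cry1, minus strand) and chr11:98775385-98775420 (Nr1d1, minus strand). No annotated exon of GENCODE M21 reaches into them, and those of Ciart and Per3 lie within the spans of the neighbouring genes C920021L13Rik and Camta1.
Ciart: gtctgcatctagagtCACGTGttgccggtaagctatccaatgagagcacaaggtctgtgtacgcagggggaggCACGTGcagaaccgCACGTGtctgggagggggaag
Per1: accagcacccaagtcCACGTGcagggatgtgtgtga
Per3: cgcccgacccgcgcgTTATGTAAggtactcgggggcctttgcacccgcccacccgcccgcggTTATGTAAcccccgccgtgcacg
Cry1: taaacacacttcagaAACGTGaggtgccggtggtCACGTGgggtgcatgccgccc
Nr1d1: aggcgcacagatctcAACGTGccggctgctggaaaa

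The Ciart window held 3 E-boxes, the Per1 window 1 E-box, and the Per3 window 2 D-boxes and no E-box. Cry1 held 1 E-box and 1 E-prime-box (AACGTG, its reverse complement form), and Nr1d1 held 1 E-prime-box. Thus 3 of 9 members had an E-box, against 8.09% of the 27025 genes in the table. An E-prime-box was found in 2 members and in 5.44% of all genes, and a D-box in 1 member and in 1.23% of all genes. Arntl had its 1 match, the ROR element core TAGGTCA, after the start. A ROR element core was found in 1 member and in 7.35% of all genes. Clock, Nr1d2 and Dbp had no match in these windows, which says only that these letters are not in this stretch.

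At the mRNA level, 5 of the 10 genes were lower in HB and none was higher. They were the repressors Per2, Ciart, Per1 and Per3 and the receptor Nr1d2, and they fell between 2.17-fold and 4.54-fold by mean RPKM (reads per kilobase, scaled to the library's total reads). Dbp, Nr1d1 and Clock did not pass the test. Arntl and Cry1 did not pass it either, and in both the HF1 library stood far above the other 3 libraries. A gene was called where limma's adjusted p was under 0.05 over the 10687 genes tested, a rule that called 19.1% of all genes lower and 7.92% higher. The median log2 fold change of all genes tested was -0.19, and that of the 10 clock genes was -0.84.

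**Figure D1:**
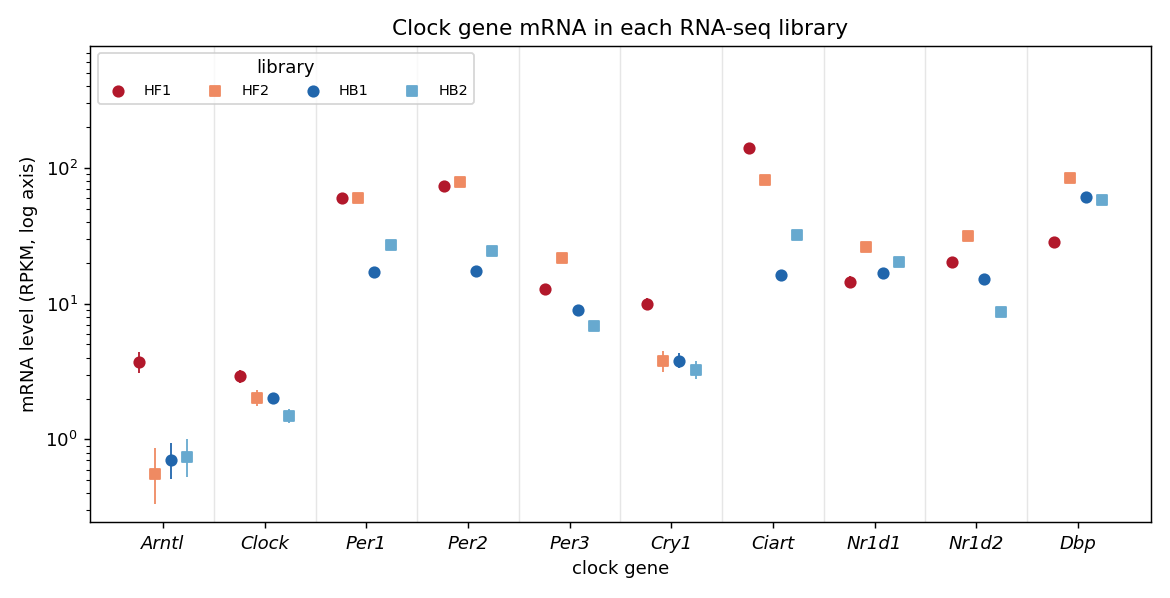
mRNA level (RPKM, log axis) of each clock gene in the 4 RNA-seq libraries, with bars for the 95% Poisson interval of the read count. Both HB libraries lie below both HF libraries for Clock, Per1, Per2, Per3, Ciart and Nr1d2, while HF1 stands above the other 3 libraries for Arntl and Cry1 and below them for Dbp.

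Per2 (chr1:91415982-91459324, minus strand, GRCm38 for all gene positions), which encodes a PERIOD repressor, had mRNA levels of 73.4 and 78.6 RPKM in HF1 and HF2 and of 17.3 and 24.2 RPKM in HB1 and HB2. The groups did not overlap, and each value rested on at least 2279 reads. The mean fell 3.66-fold, from 76.0 ± 3.66 to 20.8 ± 4.88 RPKM (SD, n = 2), with a log2 change of -1.84 ± 0.26 (SE) and an adjusted p of 0.00525 (limma). Per1 (chr11:69095217-69109960, plus strand), its paralog, was at 59.5 and 59.9 RPKM in HF and at 17.1 and 26.9 RPKM in HB. The HF libraries were almost equal, and both HB libraries lay well below them. The change was 2.71-fold, or -1.43 ± 0.28 on the log2 scale (adjusted p = 0.00847, limma).

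Per3 (chr4:151003652-151044665, minus strand), the third PERIOD gene, was at 12.9 and 21.7 RPKM in HF and at 8.91 and 6.81 RPKM in HB. Its groups did not overlap, but HF1 was nearer to HB1 than to HF2. The log2 change was -1.01 ± 0.30 (adjusted p = 0.0341, limma). Without HF2 the change was -0.66 (adjusted p = 0.310) and without HB2 it was -0.84 (adjusted p = 0.0610), so the call for Per3 rested on both libraries. Ciart (chr3:95878503-95882251, minus strand), which encodes the repressor CHRONO, had 139.9 and 80.8 RPKM in HF and 16.3 and 32.2 RPKM in HB. Among the 10 clock mRNAs it ranked 1 in HF1, 2 in HF2, 5 in HB1 and 2 in HB2. The mean fell 4.54-fold, with a log2 change of -2.16 ± 0.37 (adjusted p = 0.00599, limma). Its libraries differed within both groups, by 1.73-fold in HF and by 1.97-fold in HB, and the groups remained apart.

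Nr1d2 (chr14:18204054-18239127, minus strand), which encodes REV-ERB beta, had 20.3 and 31.7 RPKM in HF and 15.3 and 8.69 RPKM in HB. The HF and HB libraries were separated by the gap between HF1 and HB1. The log2 change was -1.07 ± 0.33 (adjusted p = 0.0370, limma), and it was -0.76 without HF2 (adjusted p = 0.225) and -0.70 without HB2 (adjusted p = 0.0929). Nr1d1 (chr11:98767932-98775333, minus strand), which encodes REV-ERB alpha, was at 14.5 and 26.2 RPKM in HF and at 16.9 and 20.1 RPKM in HB. Both HB libraries lay between the HF libraries. Its log2 change was -0.08 ± 0.31 (adjusted p = 0.864, limma), it turned to 0.19 when all libraries were set to a common median, and it ranged from -0.48 to 0.32 as single libraries were left out. Exons of Nr1d1 share 263 of 3077 bases with Thra on the other strand, and whether reads were counted by strand is not stated.

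Dbp (chr7:45705088-45710203, plus strand), a transcription factor directly driven by CLOCK and BMAL1, was at 28.7 and 84.1 RPKM in HF and at 61.3 and 57.8 RPKM in HB. The HB libraries were close to each other and lay between the HF libraries, which differed 2.93-fold. The log2 change was 0.27 ± 0.42 (adjusted p = 0.661, limma), and it was 1.03 without HF2 and -0.49 without HF1. Dbp shares 539 of its 2993 exonic bases with Sphk2 on the other strand, which had 18.7 to 37.5 RPKM.

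Arntl (chr7:113207465-113314126, plus strand), which encodes BMAL1, was at 3.72 RPKM in HF1 (126 reads), and at 0.553 in HF2 (19 reads), 0.702 in HB1 (46 reads) and 0.742 in HB2 (39 reads). HF1 stood alone, and the other HF library was the lowest of the 4. The log2 change was -0.65 ± 0.43 (adjusted p = 0.277, limma). Leaving out HF2 gave -1.45 (adjusted p = 0.000567), and leaving out HF1 gave 0.15, so HF1 alone set the direction. Clock (chr5:76209868-76304792, minus strand), the partner of BMAL1, was at 2.92 and 2.02 RPKM in HF and at 2.02 and 1.49 RPKM in HB, where HF2 and HB1 were almost equal. Its log2 change was -0.33 ± 0.25 (adjusted p = 0.359, limma).

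Cry1 (chr10:85131700-85185064, minus strand), a CRYPTOCHROME repressor, was at 9.95 RPKM in HF1 and at 3.76, 3.81 and 3.26 RPKM in HF2, HB1 and HB2. As for Arntl, HF1 stood apart from 3 libraries that were close to each other. The log2 change was -0.67 ± 0.37 (adjusted p = 0.196, limma), and it passed the test only where HF2 was left out, at -1.27 (adjusted p = 0.0232).

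Both HB libraries lay below both HF libraries for 6 of the 10 genes, the 5 called genes and Clock, and above them for none. Over all genes tested, 43.3% showed the first order and 24.8% the second. Under a stricter rule, a log2 change beyond 1 with an unadjusted p under 0.001, Ciart, Per1 and Per2 were lower, where 6.56% of all genes were called lower and 2.3% higher. In the 4 fits that left out 1 library, the log2 changes of these 3 genes all stayed below -1. They ran from -2.63 to -1.69 for Ciart, from -1.75 to -1.12 for Per1 and from -2.07 to -1.61 for Per2. With no filter on low values, limma called no gene of any kind, and the adjusted p was 0.0539 for Per2, 0.0550 for Per1 and 0.0560 for Ciart. With libraries set to a common median, the median of all genes moved from -0.19 to 0.08, the genes called changed from 846 higher and 2044 lower to 1519 higher and 1039 lower, and Per3 and Nr1d2 lost their calls (adjusted p = 0.0929 and 0.0915). In whole liver, fewer cells of a type and less RNA per cell cannot be told apart.

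**Figure D2:**
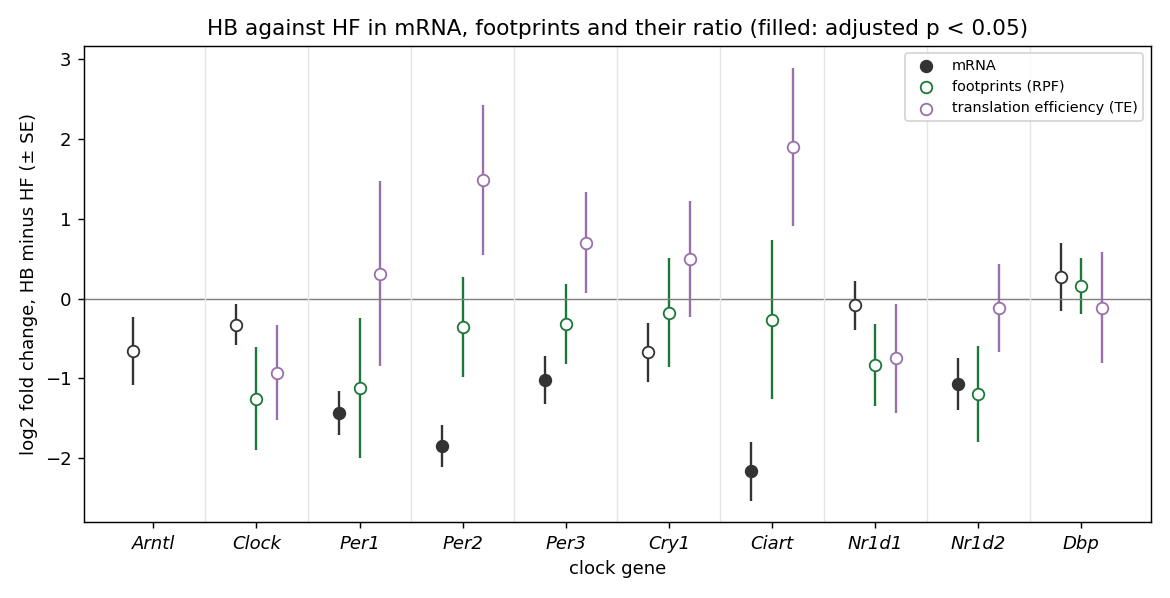
Log2 fold change of HB against HF (± SE, limma) in mRNA, RPF and translation efficiency for each clock gene, with filled symbols where the adjusted p was under 0.05. Filled symbols appear for the mRNA of Per1, Per2, Per3, Ciart and Nr1d2 alone, and Arntl has no RPF or efficiency value because its RPF level was under the filter.

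The clock genes also differed between the libraries of 1 group, and the spread was not shared evenly among them. Between HF1 and HF2, Arntl was 6.72-fold and Cry1 2.65-fold higher in HF1, and Dbp was 2.93-fold and Nr1d1 1.80-fold higher in HF2. The log2 differences of these 4 genes were larger than those of 99.6%, 98.9%, 99.4% and 95.7% of all genes tested, where the median absolute difference was 0.21. Ciart, 1.73-fold higher in HF1, exceeded 95.4% of genes, and Per3 and Nr1d2, 1.69-fold and 1.56-fold higher in HF2, exceeded 94.0% and 91.3%. Per1 and Per2 were alike in the HF libraries, with ratios of HF2 to HF1 of 1.01 and 1.07. So the high-Arntl library was the low-Dbp and low-Nr1d1 library, and Per1 and Per2 did not follow that split.

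Between HB1 and HB2, no clock gene exceeded 95% of all genes. Ciart was 1.97-fold and Per1 1.58-fold higher in HB2, and Nr1d2 was 1.76-fold higher in HB1. These differences exceeded those of 94.7%, 81.8% and 88.5% of genes, with a median absolute difference of 0.32. Arntl and Dbp, the genes that split the HF libraries most, differed by 1.06-fold each in HB.

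**Figure D3:**
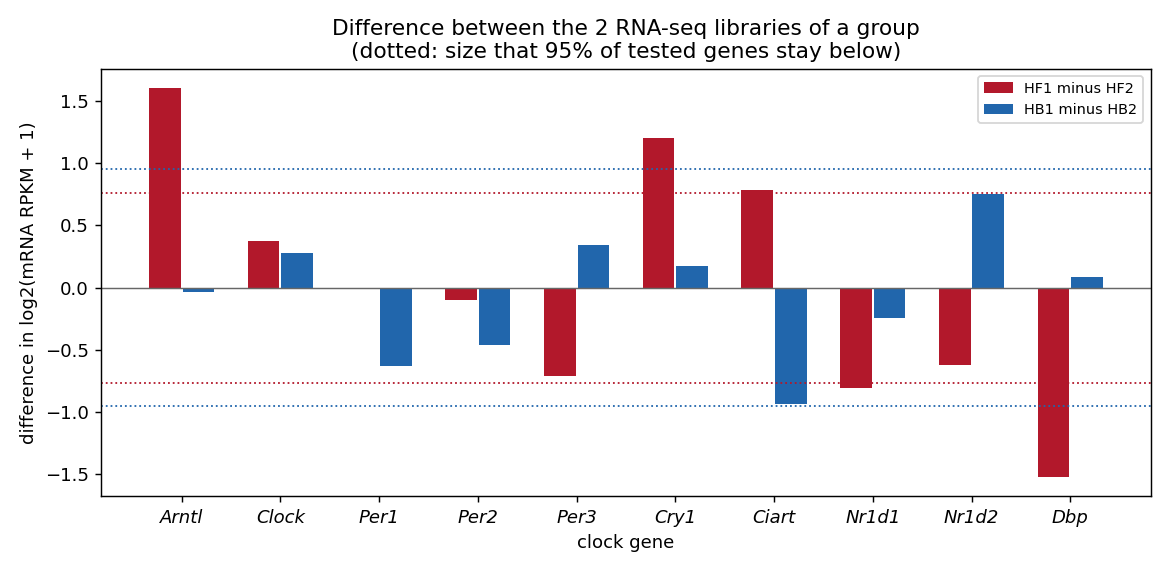
Difference in log2(mRNA RPKM + 1) between the libraries of each group for each clock gene, with dotted lines at the absolute difference that 95% of all tested genes stay below (0.763 in HF, 0.950 in HB). Arntl, Cry1, Ciart, Nr1d1 and Dbp pass the line in HF, and no gene passes it in HB.

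Ratios within a library do not depend on its scaling, and 4 of them are given here, chosen after their values were seen. The ratio of Per2 to Dbp mRNA was 2.56 and 0.935 in HF1 and HF2 and 0.283 and 0.419 in HB1 and HB2. The ratio of Per2 to Nr1d1 was 5.05 and 3.005 in HF and 1.03 and 1.20 in HB. Both mRNA ratios were lower in each HB library than in each HF library, and the first also differed between the HF libraries. Arntl to Dbp was 0.130 in HF1 and 0.00657, 0.0115 and 0.0128 in HF2, HB1 and HB2. Per1 to Per2, by contrast, stayed between 0.762 and 1.11 in all 4 libraries. The mean log2(RPKM + 1) of 7 E-box or output genes (Per1, Per2, Per3, Ciart, Nr1d1, Nr1d2 and Dbp) minus that of Arntl and Clock was 3.09 and 4.50 in HF and 3.10 and 3.37 in HB. HF1 had the lowest value and HF2 the highest, so this contrast of the limbs of the loop differed more within HF (SD 1.00) than between the groups (-0.56). With Cry1 added to the 7 genes, HB1 had the lowest value, at 2.85 against 2.87 in HF1, and HF2 still had the highest. In RPF, Per2 to Dbp was 0.258 and 0.0991 in HF and 0.103 and 0.115 in HB. Per2 to Nr1d1 was 1.23 and 0.347 in HF and 0.947 in both HB libraries, so both RPF ratios overlapped between the groups. The same contrast of 7 genes was 2.93 and 2.00 in HF and 2.95 and 2.60 in HB in RPF, with HF2 lowest. Per2 had at most 30 RPF reads in a library.

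At the level of RPFs, no clock gene passed the test between the groups. RPF levels of 9 genes could be tested, and limma called none of them, where it called 0% of the 11190 genes tested. Over all genes, 192 were higher and 930 lower at an unadjusted p under 0.05, and the lowest adjusted p was 0.108. This split depended on the scaling, with 404 higher and 427 lower for a common median and 41 higher and 2662 lower for a common sum. By adjusted p, limma's voom on whole reads called 51 higher and 26 lower, and limma called 1 higher and 700 lower without HF1 and 5 higher and 699 lower without HF2, none of them a clock gene. The Ribo-seq libraries were shallow, with 387980 and 1056546 reads in HF1 and HF2 and 257086 and 141890 reads in HB1 and HB2. A clock gene had 3 to 308 reads over the 4 libraries together, and its level in single libraries rested on as few as 1 read where any was found.

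By group means Dbp and Nr1d2 had the highest RPF levels of the clock genes, although Ciart was above Nr1d2 in HB2. Dbp was at 44.5 and 49.1 RPKM in HF and at 64.9 and 42.0 RPKM in HB (29, 87, 28 and 10 reads), with overlapping groups and a log2 change of 0.16 ± 0.35 (adjusted p = 0.876, limma). Nr1d2 was at 35.6 and 41.6 RPKM in HF and at 28.5 and 9.11 RPKM in HB (64, 204, 34 and 6 reads). Its HB libraries lay below its HF libraries, as in mRNA, with a log2 change of -1.19 ± 0.60 (adjusted p = 0.568, limma). The change was -1.96 without HB1 and -0.42 without HB2, and neither passed the test. The low value of HB2 had a 95% Poisson interval of 3.34 to 19.8 RPKM, which covers counting error only.

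The PERIOD genes had RPF levels that overlapped or nearly overlapped between the groups. Per1 was at 12.1 and 9.73 RPKM in HF and at 10.8 and 1.51 RPKM in HB, where the last value was 1 read with an interval of 0.0382 to 8.41 RPKM. Per2 was at 11.5 and 4.86 RPKM in HF and at 6.66 and 4.83 RPKM in HB, with a log2 change of -0.36 ± 0.63 (adjusted p = 0.844, limma). Per3 was at 9.02 and 8.36 RPKM in HF and at 7.78 and 5.87 RPKM in HB, from 21, 53, 12 and 5 reads. For Per3 all 4 counting intervals overlapped. Ciart was at 11.1 and 10.9 RPKM in HF (6 and 16 reads) and at 2.79 and 25.3 RPKM in HB (1 and 5 reads). The HB libraries of Ciart thus enclosed the HF libraries, and its log2 change went from -1.66 to 1.13 as single libraries were left out.

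Clock was at 3.70 and 6.70 RPKM in HF and at 1.60 and 1.45 RPKM in HB (14, 69, 4 and 2 reads), with a log2 change of -1.26 ± 0.65 (adjusted p = 0.577, limma). Nr1d1 was at 9.32 and 14.0 RPKM in HF and at 7.03 and 5.10 RPKM in HB (10, 41, 5 and 2 reads). Clock, Per3, Nr1d1 and Nr1d2 were the 4 genes with both HB libraries below both HF libraries in RPF, an order shown by 33.2% of all genes tested, with 9.07% in the opposite order. Cry1 had 5, 16, 5 and 1 reads, and overlapped. Arntl had 3 reads in HF2 (0.986 RPKM) and 0 in the other libraries, where 3 reads, the limit set here for a count of 0, would be 2.68 RPKM in HF1, 4.05 in HB1 and 7.34 in HB2. Under the thresholds for a log2 change beyond 1 and an unadjusted p under 0.05, no clock gene was called in RPF, where 7.86% of all genes were lower and 1.58% higher.

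**Figure D4:**
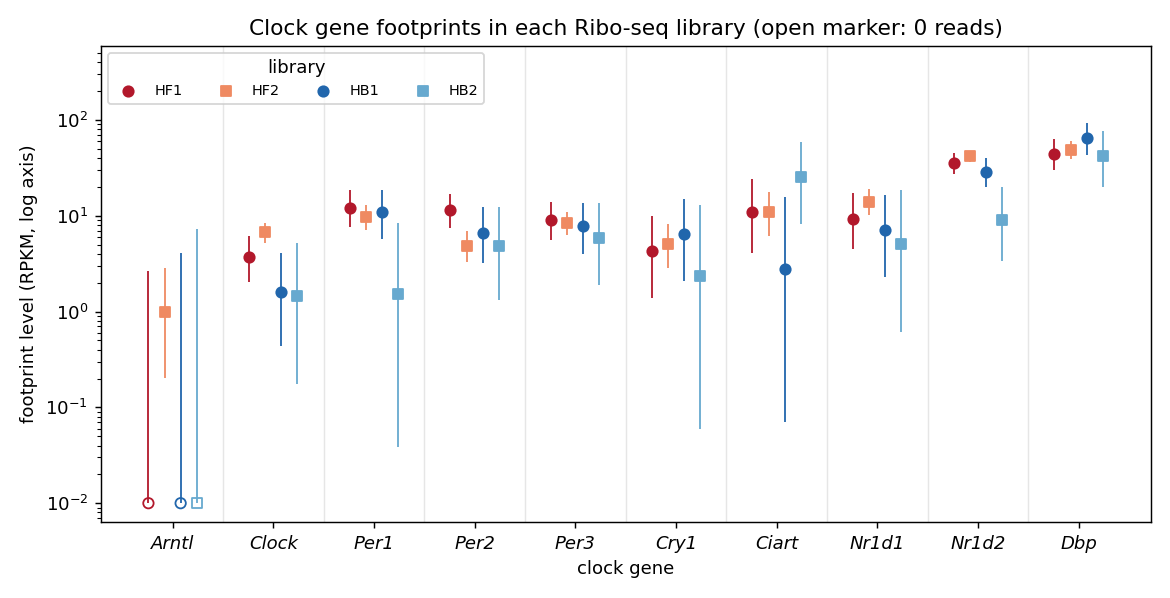
RPF level (RPKM, log axis) of each clock gene in the 4 Ribo-seq libraries, with 95% Poisson intervals of the read count and open markers at the bottom for 0 reads, with bars that reach the level of 3 reads. The intervals are widest where a value rests on few reads, as for most genes in HB2, and the groups are less separated than in mRNA for Per1, Per2 and Ciart.

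Translation efficiency (TE) was the RPF level divided by the mRNA level of the library with the same group and number. Which of these share an animal is not stated. Over all genes, the differences between same-numbered libraries correlated between RNA-seq and Ribo-seq at -0.0024 in HF and -0.077 in HB. Per1, Per2 and Ciart, on average the most abundant clock mRNAs in HF, had low TE there. Per2 had a TE of 0.156 and 0.0619 in HF1 and HF2, Per1 of 0.204 and 0.163, and Ciart of 0.0792 and 0.134, where the median gene had 1.07 and 1.02. At most 9.46% of the 9455 genes tested had a lower TE than any of these 6 values. Nr1d2 by contrast had a TE of 1.75 and 1.31 in HF, above 67.7% and 59.2% of genes, and Dbp had 1.55 and 0.584.

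In HB the TE of Per2 was 0.385 and 0.199, higher than in either HF library, with a log2 change of 1.48 ± 0.94 (adjusted p = 0.547, limma). Ciart had 0.171 and 0.784 in HB, also above both HF libraries, with a log2 change of 1.90 ± 0.99 (adjusted p = 0.484, limma). That order depended on matching the libraries by number, since the TE groups of Ciart overlap with the numbers crossed. Without HB1 the change in Ciart was 2.82 and passed the test (adjusted p = 0.0290), a value that rested on 5 RPF reads in HB2. That fit called 321 of the 9455 genes higher and 1280 lower. Per1 had 0.635 and 0.0561 in HB, on either side of HF, and Per3 had 0.874 and 0.863 against 0.701 and 0.384. Clock was at 0.792 and 0.969 in HB against 1.27 and 3.31 in HF, with a log2 change of -0.93 ± 0.59 (adjusted p = 0.551, limma). Nr1d1 was at 0.417 and 0.254 in HB against 0.641 and 0.537 in HF, with a log2 change of -0.75 ± 0.69 (adjusted p = 0.680, limma). Thus Clock and Nr1d1 had both HB libraries below both HF libraries in TE, an order shown by 31.9% of all genes tested. Per2, Per3 and Ciart had the opposite order, as had 13.2% of all genes. Nr1d2 and Dbp had changes of -0.12 and -0.11, so 4 of 9 genes were below 0 and 5 above.

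The TE of none of the 9 clock genes tested passed the threshold, and limma called 0% of all 9455 genes at an adjusted p under 0.05, with 268 higher and 886 lower at an unadjusted p under 0.05 and 1 higher in a fit with an interaction of assay and group. The unadjusted counts became 456 higher and 516 lower for a common median, and 67 higher and 2563 lower for a common sum. By adjusted p, 294 genes were higher and 748 lower without HB2, none of them a clock gene. The log2 changes of Per1, Per2, Per3, Cry1 and Ciart were all above 0, from 0.31 to 1.90, while the median of all genes was -0.35. When RPKM was rescaled to a common sum, those of Per1, Per3 and Cry1 turned to -0.34, -0.045 and -0.15, and the median of all genes went to -1.04. Since mRNA is the denominator of TE, these values are not independent of the mRNA result. Under a log2 change beyond 2 and an unadjusted p under 0.05, none was called, where 1.49% of all genes were higher and 4.6% lower.

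Of 9 other genes of the clock loop, 6 were expressed enough to test, and 1 was lower in HB mRNA, a share near the 19.1% of all genes tested that were lower. Tef, a D-box activator related to Dbp, was at 78.6 and 120.8 RPKM in HF and at 44.6 and 45.6 RPKM in HB (log2 change -1.10, adjusted p = 0.0203, limma). Its groups did not overlap. Tef was not called without HF2, at a log2 change of -0.79 (adjusted p = 0.210, limma), nor with libraries set to a common median, at -0.82 (adjusted p = 0.0676).

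Nfil3, which encodes the D-box repressor E4BP4, was at 62.5 RPKM in HF1 and at 16.8, 8.11 and 20.3 RPKM in HF2, HB1 and HB2 (log2 change -1.27, adjusted p = 0.115, limma). HF1 was again the library that stood apart, as for Arntl and Cry1. The change was called without HF2 (-2.19, adjusted p = 4.57e-05) and without HB2 (-1.89, adjusted p = 0.0256). Cry2, the second CRYPTOCHROME, was at 13.6 and 14.1 RPKM in HF and at 10.1 and 10.8 RPKM in HB, and Hlf, a further D-box activator, at 8.34 and 10.3 against 7.31 and 7.48 RPKM. Both were slightly lower in each HB library and did not pass the test. Rora and Bhlhe40 overlapped between the groups. Npas2 and Bhlhe41 were under 1 RPKM in all libraries, and Rorb was listed at 0. The median log2 change of the 6 genes was -0.34.

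Of 15 genes for proteins that modify or assist clock proteins, 2 were lower and none higher, with a median of -0.35, where 19.1% of all genes tested were lower and 7.92% higher. Usp2, a deubiquitinase, had a log2 change of -1.35 (adjusted p = 0.00777, limma), and Sirt1, an NAD-dependent deacetylase, of -1.26 (adjusted p = 0.00850, limma). Both kept their calls when any 1 library was left out. Prkaa2, a catalytic subunit of AMP-activated protein kinase, was called higher without HB2 and with the common median, and Ncor1, a corepressor, lower without HB1. Of 20 liver output genes of the clock, 6 were lower and none higher, beside the same 19.1% and 7.92% of all genes, and the median of -0.25 was close to that of all genes. Without HF1, 3 of the 6 were called, and with the common median also 3, in fits that called 9.31% and 9.72% of all genes lower and 3% and 14.2% higher. Genes called higher also appeared, Elovl3 and Insig2 without HF1, Tspan4 without HB1, and Slc16a1 without HB2 and with the common median. Cyp7a1 was called lower without HF2 or HB2. Noct, a circadian gene named nocturnin, was at 176.8 and 185.7 RPKM in HF and at 26.6 and 50.5 RPKM in HB, with a log2 change of -2.27 (adjusted p = 0.00523, limma), as large as that of Ciart. Usp2 is in this list too, and Upp2, a uridine phosphorylase, fell by 1.44 and Ppard by 1.10 on the log2 scale (adjusted p = 0.00828 and 0.0238, limma). The call for Ppard was lost without HF1 or HB1 and with the common median.

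**Figure D5:**
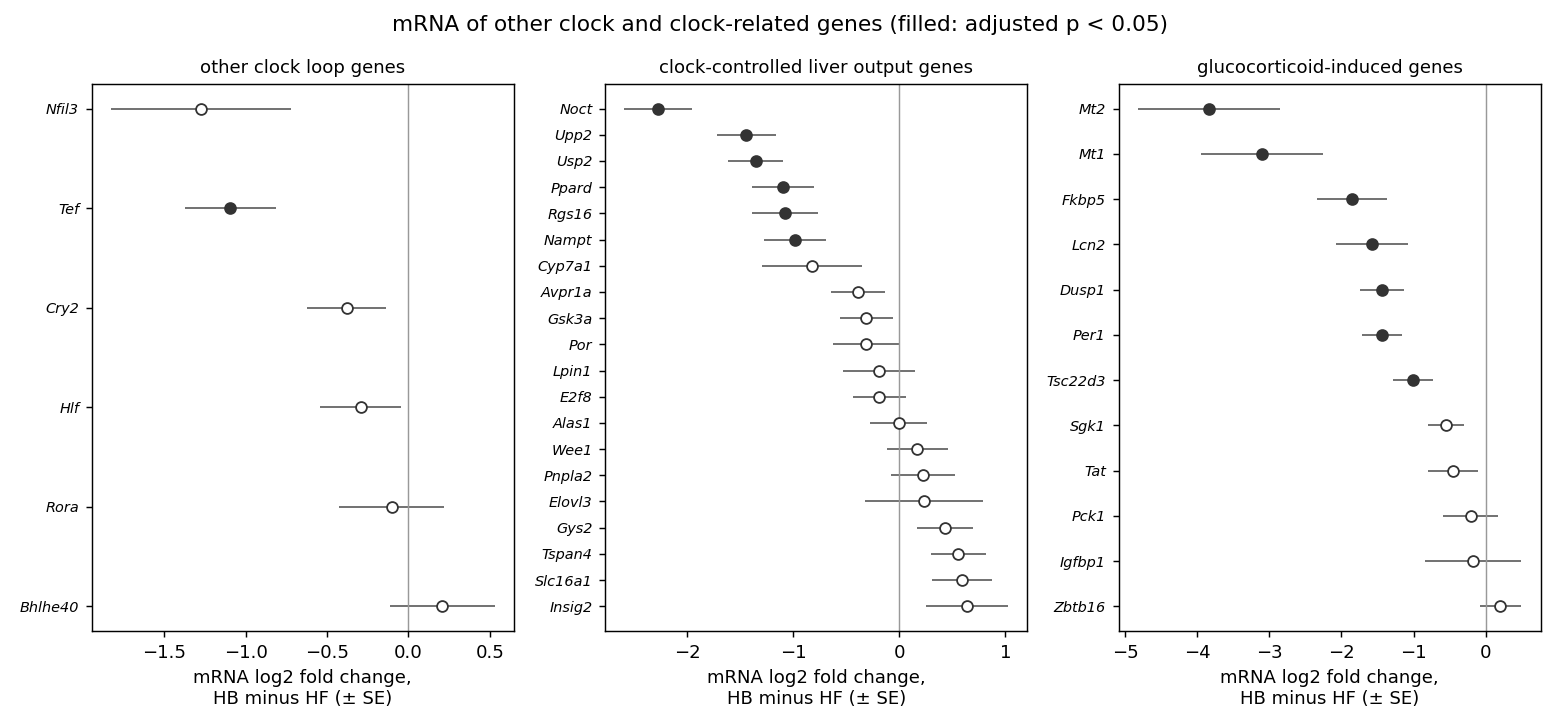
mRNA log2 fold change of HB against HF (± SE, limma) for the tested genes of 3 lists, with filled symbols where the adjusted p was under 0.05. Called genes are lower in HB in each list, 1 of 6 other clock loop genes, 6 of 20 output genes and 7 of 12 glucocorticoid-induced genes, the last including Per1 itself.

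Glucocorticoids also act on Per1 and Per2, and genes they induce were listed for that reason. Of 12 such genes, 7 were lower in HB and none higher, with a median log2 change of -1.22, where 19.1% of all genes tested were lower and 7.92% higher. Without HF1, 4 of the 7 were called, and 5 without HB1 or with the common median, where 9.31%, 16.1% and 9.72% of all genes were lower. Without HF2, 6 of the 7 and Igfbp1 were called. Besides Per1 these were led by Dusp1, a phosphatase, Mt2, a metallothionein, and Fkbp5, a cochaperone of the glucocorticoid receptor. Fkbp5 was at 108.7 and 43.9 RPKM in HF and at 11.1 and 30.3 RPKM in HB (log2 change -1.85, adjusted p = 0.0229, limma; -1.17 and 0.0734 without HB1). Dusp1 had a log2 change of -1.44 (adjusted p = 0.0106; 0.0879 without HF1), and Mt2 was at 682.0 and 164.1 RPKM in HF and at 5.58 and 82.4 RPKM in HB, a change of -3.84 (adjusted p = 0.0203). The part of this list in the result for Per1 and Per2 was not tested.

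The identity of the tissue and other cells in it were checked with marker lists, whose counts stand beside 19.1% of all genes tested called lower and 7.92% called higher. The 8 hepatocyte markers were all expressed, with summed levels of 46757 and 48689 RPKM in HF and of 57810 and 55009 RPKM in HB. Both HB sums were above both HF sums, while Alb, the largest part, overlapped between the groups. Of these markers 1, Serpina1a, was higher in HB (not called without HF1, at a log2 change of 1.11). The 8 Kupffer cell markers summed to 131.3 and 159.1 RPKM in HF and to 182.0 and 168.7 RPKM in HB, and 2 of them, Cd5l and Marco, were higher (neither without HF1, adjusted p = 0.151 and 0.295, limma, nor Marco without HB1, 0.0863). The 6 lymphocyte and neutrophil markers summed to 12.8 and 57.5 RPKM in HF and to 5.77 and 6.55 RPKM in HB, and all 3 tested, Ptprc, S100a9 and S100a8, were lower. None of the 3 was called without HF2 (adjusted p = 0.0580, 0.136 and 0.0836, limma), and 1 was called without HB1 or with the common median. Stellate markers summed to 35.4 and 34.0 RPKM in HF and to 71.7 and 43.5 RPKM in HB. Most of that was Dcn, at 21.9 and 22.4 RPKM in HF and 57.8 and 30.6 RPKM in HB. Of the 6 stellate markers tested, 4 had a negative log2 change and 2 a positive one. Adipose and pancreas markers, with 3 of 6 at 0, summed to 6.24 and 8.94 RPKM in HF and to 12.4 and 13.8 RPKM in HB. Nearly all of that was Cela1, at 6.13 and 8.87 RPKM in HF and 12.4 and 13.3 RPKM in HB. Dcn and Cela1 each had both HB libraries above both HF libraries, as had 24.8% of all genes tested. Both sums were higher in each HB library than in each HF library, and no marker of these lists was called, although Dcn and Lrat were called higher without HB2 and Cela1 and Dcn with the common median. Cholangiocyte markers summed to 26.2 and 31.9 RPKM in HF and to 15.7 and 26.0 RPKM in HB, and endothelial markers to 58.0 to 68.7 RPKM with overlapping groups (Stab2 was lower, but not without HF1, HF2 or HB1 or with the common median). Nuclear retained RNAs summed to 130.7 and 155.5 RPKM in HF and to 113.5 and 91.2 RPKM in HB, with Neat1 lower. The part of these differences in the clock gene results was not tested. RNA-seq depth was 11661207 and 11824128 reads in HF and 22543471 and 18082686 reads in HB. Both HB libraries were deeper than both HF libraries in RNA-seq and shallower in Ribo-seq. Depth and betaine thus cannot be told apart in mRNA, RPF or TE.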

How the data were processed

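Reads were aligned by the authors with FANSe2 (mm10), and the deposited values are RPKM, 1 column per library. The FANSe2 version, the annotation and the use of strand are not given in the sources used here. The authors called differential genes with edgeR, which was not used here. The 10 clock genes and all gene lists were chosen with earlier results of these data known. Genes whose RPKM averaged 1 or more were fitted on log2(RPKM + 1) with limma 3.58.1 in R 4.3.3 (intensity trend, two-sided, Benjamini-Hochberg adjustment over all genes tested), so fold changes on this scale understate those of low genes. TE was fitted as the difference of these log values. The stricter rules are the thresholds of the study's methods.

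Whole reads were recovered from the steps of RPKM for 99.98% to 99.99% of values above 0 (within 0.003 reads in RNA-seq and 0.001 in Ribo-seq), and the recovered reads sum to 97.7% to 99.5% of the estimated totals. They entered read counts, Poisson intervals, the 3-read limit for 0 reads and limma's voom. The 4 RNA-seq entries whose symbol occurs more than once did not enter the fits. All 10 clock genes were named, as were all tested loop genes and up to 4 called genes per direction of each other list. A few genes were taken out of the lists without regard to their values, none from the output or glucocorticoid lists, and are not reported here. Positions are from GENCODE M21 (GRCm38). Alternatives were the pseudocount, the filter, 2 scalings, the trend, voom, an interaction fit, crossed or blocked replicate numbers and each library left out, where a lone library is assumed to vary like the other group.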

Additional observations from a re-analysis of the deposited data

How the results depend on the processing

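The count of clock genes lower in HB mRNA, 5 in the reported fit, was 0 with no filter on low values, 3 with libraries set to a common median and 3 under the thresholds of the methods, and it ran from 3 to 5 as single libraries were left out, in fits that called 9.31% of all genes lower without HF1, 13.4% without HF2, 16.1% without HB1 and 22.3% without HB2. Without HB2 it was 3, and without HF2 it was 5, of which 3 were among the reported genes, since Per3 and Nr1d2 lost their calls and Arntl and Cry1 gained them. For TE the count of higher clock genes ran from 0 to 1 over the libraries left out, with Ciart called without HB1. No other count of clock genes by adjusted p changed. Under the thresholds of the methods, the mRNA count of 3 was 1 with no filter (1.12% of all genes lower), 2 with the common median (2.72%) or without HF1 (5.14%), and 4 without HB1 (5.46%) or with crossed pairs (12.2%). The RPF count of 0 became 3 lower with RPKM rescaled to a common sum (23.8% of all genes lower), 2 lower with voom (6.41%), 1 higher and 2 lower without HB1 (3.6% higher and 23.3% lower), and 1 lower without HB2 (14.2%). The replicate numbers did not pair the samples (correlation of same-numbered deviations -0.104 in RNA-seq and -0.0138 in Ribo-seq). With a replicate block, 5 clock genes were lower in mRNA, and over all genes the calls went from 846 to 968 higher and from 2044 to 2247 lower. Nfil3 was called lower with the replicate block (adjusted p = 0.00377, limma) and with crossed pairs (0.00126). With crossed pairs, chosen after seeing the data, 5 clock genes were lower, and 1097 genes were higher and 2504 lower in all. Changes of sign were confined, among the clock and loop genes, to values that were not called. With the common median, mRNA of Nr1d1 went to 0.19 and of Rora to 0.17, RPF of Per3 to 0.0071, of Cry1 to 0.15 and of Ciart to 0.062, and TE of Nr1d2 to 0.20 and of Dbp to 0.21. With RPKM rescaled to a common sum, RPF of Dbp went to -0.70 and TE of Per1, Per3 and Cry1 to -0.34, -0.045 and -0.15. With voom, RPF of Cry1 went to 0.025. Over the libraries left out, mRNA ranged from -1.45 to 0.15 for Arntl, from -0.48 to 0.32 for Nr1d1, from -0.49 to 1.03 for Dbp, from -0.59 to 0.38 for Rora and from -0.19 to 0.60 for Bhlhe40. RPF ranged from -0.90 to 0.19 for Per2, from -0.76 to 0.40 for Cry1, from -1.66 to 1.13 for Ciart and from -0.15 to 0.46 for Dbp. TE ranged from -1.12 to 1.74 for Per1, from -0.20 to 1.19 for Cry1, from -0.52 to 0.28 for Nr1d2 and from -0.80 to 0.58 for Dbp. The cause of these changes was not tested. Depth limits the RPF and TE values, since a clock gene had at most 34 RPF reads in HB1 and HB2.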

Other observations

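Further lists of genes whose mRNA can vary with the time or handling of an animal were examined, and their counts stand beside 19.1% of all genes tested called lower in HB and 7.92% called higher. Of 10 genes that respond to temperature, none was lower in HB and 2 were higher, the heat shock genes Hspa1b (8.33 and 18.2 RPKM in HF, 44.0 and 39.9 RPKM in HB, log2 change 1.68, adjusted p = 0.00928, limma) and Hspa1a (log2 change 1.10, adjusted p = 0.0316, limma). Neither was called without HF1 (adjusted p = 0.0609 and 0.306), and Hspa1a was not called without HB2 (adjusted p = 0.0794). Cirbp and Rbm3, RNA-binding proteins induced by cold, did not pass the test. Of 9 immediate early genes tested, Dusp1 and Ier2 were lower, a share near that of all genes, and none was higher. The number called lower ran from 0 to 4 as single libraries were left out. Ier2 was not called without HF1 or HB1 (adjusted p = 0.219 and 0.0501), nor Dusp1 without HF1 (0.0879).

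The HF1 library stood above the other 3 RNA-seq libraries for further genes, picked here after their values were seen. Igfbp1, an insulin-repressed liver gene, was at 108.3 RPKM in HF1 and at 15.5, 37.4 and 36.1 RPKM in HF2, HB1 and HB2. Egr1, an immediate early gene, was at 10.1 RPKM in HF1 and at 1.65, 1.07 and 1.89 RPKM in the others. Mt1, a metallothionein, was at 1348 RPKM in HF1 and at 475.8, 29.6 and 285.2 RPKM in HF2, HB1 and HB2. HF1 was the highest library for Arntl, Cry1 and Nfil3 too.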
